A study of Mus musculus with 12 samples.

Results

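CatSper is the calcium channel of the sperm tail. Its pore is built from CATSPER1, CATSPER2, CATSPER3 and CATSPER4, and large auxiliary proteins named with the letters b, g, d and e (beta, gamma, delta and epsilon) stand over the pore on the outside of the cell, while CATSPERZ lies on the inner side. The channel sits in the principal piece of the flagellum, opens as the cell interior becomes more alkaline, and drives the hyperactivated beat that sperm need to fertilise an egg. Male mice without any one of the pore subunits are infertile. Here the RNA of the subunits was followed from round spermatids (RS) to elongated spermatids (ES), the last stages before sperm are released, in mice with and without active TENT5C, an enzyme that lengthens the poly(A) tails of mRNAs.

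Every transcript whose gene symbol begins with Catsper was taken, which gave 23 transcript references (contigs) of 11 genes among 12114 contigs in the count table. The libraries were direct RNA sequencing libraries of poly(A) RNA from the testes of adult males, in 4 groups with 3 libraries in each. The groups were RS from Tent5c wt/wt mice, RS from Tent5c dcat/dcat mice, ES from Tent5c wt/wt mice and ES from Tent5c dcat/dcat mice. The dcat allele encodes a catalytically dead TENT5C, carried throughout the body on a C57BL/6 background, and the wt/wt mice carry the normal gene. Each library pooled RNA from 3 mice, so the spread between libraries understates the spread between animals. Cells of both stages were taken from the same animals. Cells were sorted on DNA content, red fluorescence and light scatter, which enriches a stage without making it pure.

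Library totals ran from 337287 to 1359427 reads, and the libraries held between 274 and 2737 CatSper reads each. Levels are given as CPM (read counts scaled to a common library total, adjusted by the trimmed mean of M values, TMM), and a contig was called where edgeR's quasi-likelihood test gave a q (Benjamini-Hochberg adjusted p over 11831 contigs) of at most 0.05. The lists of marker genes moved with stage. The 14 elongated spermatid marker contigs summed to 19657 to 41975 CPM over the RS libraries, against 212585 to 281116 CPM over the ES libraries, and 12 of them were called higher in ES in each genotype. The 7 contigs of 6 Leydig cell marker genes (Insl3 and Cyp17a1 among them) summed to 15.0 to 45.5 CPM over the RS libraries, against 255 to 1015 CPM over the ES libraries, and 7 of 7 were called higher in ES in each genotype. The 4 Sertoli cell marker contigs summed to 2.14 to 30.5 CPM over RS libraries, against 166 to 342 CPM over ES libraries, and 4 of 4 were called higher in ES in each genotype. Of the 12 tested meiotic marker contigs, 4 were called lower and 1 higher in wt/wt, and 1 lower and 1 higher in dcat/dcat. All 13 meiotic contigs summed to 268 to 365 CPM in RS wt/wt against 188 to 205 CPM in ES wt/wt. In dcat/dcat they summed to 262 to 345 CPM in RS against 250 to 279 CPM in ES. The stages thus overlapped in dcat/dcat, and the ES libraries of dcat/dcat all lay above those of wt/wt. Of the 9 round spermatid marker contigs, 3 were called lower in each genotype and 1 higher in wt/wt. They summed to 892 to 975 CPM over RS libraries against 526 to 687 CPM over ES libraries. Of the other listed markers, Star, Lhcgr, Hsd17b3 and Hsd3b6 (Leydig), Sox9, Wt1, Amh, Gata4, Inha and Rhox5 (Sertoli) had no contig among those counted. Nor had Dmc1, Meiob, Mlh3 and Msh4 (meiotic) and all macrophage and peritubular genes. The part these other cells play in the differences between stages and between genotypes below was not tested. Tent5c itself stood at 310 ± 61.8 CPM (RS wt/wt), 343 ± 65.0 CPM (RS dcat/dcat), 862 ± 46.3 CPM (ES wt/wt) and 990 ± 116 CPM (ES dcat/dcat; SD, n = 3). The dcat allele changes the protein, so this level does not check the genotype labels.

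The pore subunits carry a short motif in the loop that lines the pore, with the residues threonine, any, aspartate, any, tryptophan. A search of each coding contig found this pattern 1 time in each of the 4 main pore contigs. The stretch around it is shown for each subunit because it is the part of the channel that calcium passes and shows how far the 4 pore genes differ from each other in nucleotides. Capitals mark the threonine, aspartate and tryptophan codons (build GRCm38, coding strand).
Catsper1, chr19:5339798-5339842, plus strand: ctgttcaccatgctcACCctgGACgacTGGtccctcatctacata
Catsper2, chr2:121400153-121400197, minus strand: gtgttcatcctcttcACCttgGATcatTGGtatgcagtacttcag
Catsper3, chr13:55804949-55804966 joined to chr13:55805714-55805740, plus strand: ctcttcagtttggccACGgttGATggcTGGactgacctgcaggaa
Catsper4, chr4:134217814-134217858, minus strand: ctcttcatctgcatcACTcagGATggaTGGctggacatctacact
The second Catsper2 contig, ENSMUST00000154604, is annotated as a target of nonsense-mediated decay and lacks the exon that holds this stretch, whereas the second contigs of Catsper3 and Catsper4 keep it.

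Summed over 23 contigs, CatSper RNA was lower in ES than in RS in both genotypes. The RS wt/wt libraries held 1427, 1511 and 1619 CPM and the ES wt/wt libraries 963, 1018 and 968 CPM. The RS dcat/dcat libraries held 1519, 1507 and 1671 CPM and the ES dcat/dcat libraries 920, 1001 and 1008 CPM. No ES library reached the lowest RS library of its genotype. The ratio of the means, ES over RS, was 0.647 in wt/wt and 0.624 in dcat/dcat, and as a share of all counts it was 0.396 and 0.392. Catsperz alone made up 58.7% ± 3.05 of the CatSper reads of RS wt/wt libraries, against 52.8% ± 1.23 of those of ES wt/wt libraries (SD, n = 3), and without it the wt/wt sums were 464 ± 1.96 CPM in ES against 625 ± 28.7 CPM in RS. A lower level of this kind cannot be told apart from a smaller share of cells that carry the RNA, since the samples are bulk libraries.

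**Figure D1:**
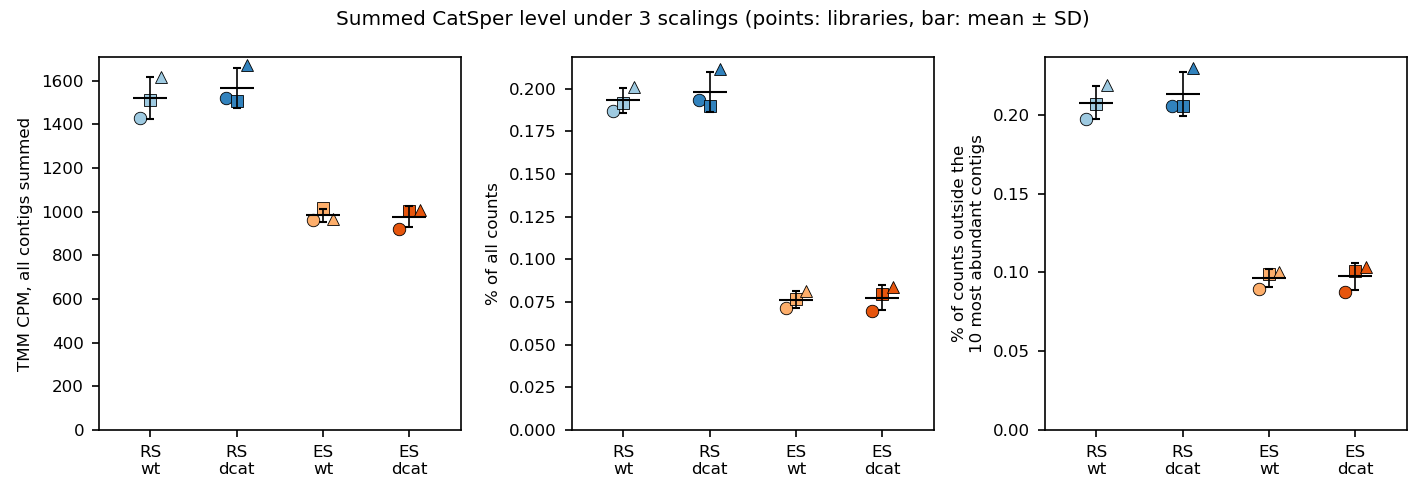
CatSper level in every library (x axis, the 4 groups; points, 3 libraries a group; bars, mean ± SD), with 23 contigs summed as TMM CPM, as a percentage of all counts and as a percentage of counts outside the 10 most abundant contigs (y axes). In all 3 panels the ES libraries lie below the RS libraries of the same genotype, and the ratio ES over RS runs from 0.392 to 0.647.

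At the level of single contigs few members passed the test. Of 22 contigs with enough reads for the test, 3 were called lower and 0 higher in ES of wt/wt mice, beside 16.5% of all 11831 contigs called lower and 23.8% called higher. In dcat/dcat mice 3 were called lower and 0 higher, beside 16.9% of all contigs called lower and 24.0% called higher. The share of the 22 called lower was near the share of all contigs. The median log2 change of the 22 was -0.27 in wt/wt and -0.35 in dcat/dcat, beside -0.24 and -0.18 over all contigs. The contigs called in both genotypes were the main contigs of Catsper2 and Catsperz. The scaling sets the zero of these changes: with total counts alone the median of all contigs shifted by -0.71 in wt/wt and -0.66 in dcat/dcat, 10 members were called lower in each genotype beside 45.7% and 42.2% of all contigs, and the share of calls that were higher went from 59.0% to 26.5% and from 58.7% to 28.2%.

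**Figure D2:**
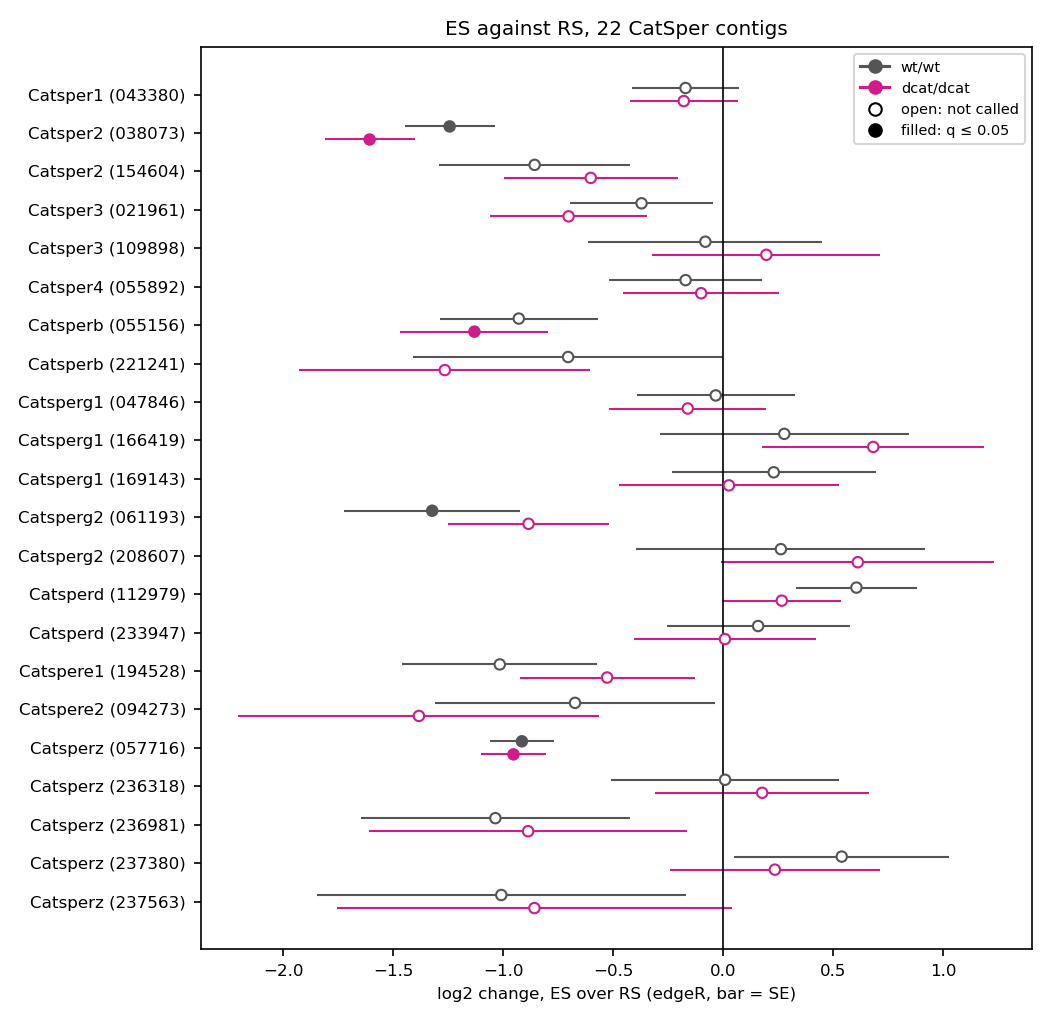
Log2 change of ES over RS (x axis) for the 22 tested CatSper contigs (y axis, gene and last digits of the transcript identifier), in wt/wt (grey) and dcat/dcat (magenta), with bars of 1 SE and filled points where q was at most 0.05. The filled points, 3 in each genotype, are all below 0, from -0.92 to -1.61.

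Among the pore subunits, Catsper2 fell and the other pore genes did not pass the test. The main Catsper2 contig (ENSMUST00000038073, 13 exons, 2247 nt, chr2:121394355-121413792, minus strand) was counted at 204, 180 and 177 CPM in RS wt/wt and at 73.9, 76.1 and 88.3 CPM in ES wt/wt. In dcat/dcat it was at 200, 216 and 223 CPM in RS and at 62.6, 54.9 and 89.5 CPM in ES. Every ES library lay below every RS library. The log2 change was -1.24 ± 0.20 (SE, edgeR q = 0.000248) in wt/wt and -1.61 ± 0.20 (edgeR q = 3.08e-05) in dcat/dcat, that is 2.37-fold and 3.05-fold lower in ES. CATSPER2 is the pore subunit deleted in a human syndrome of deafness and male infertility. The second Catsper2 contig, which lacks the pore stretch shown above, had log2 changes of -0.86 ± 0.43 (q = 0.128) and -0.60 ± 0.40 (q = 0.240). This second contig also has 954 nucleotides of its own at the 3′ end, where direct RNA reads begin. Reads counted for it therefore need not have reached the missing exon.

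Catsper1, the subunit with a histidine-rich amino end, was counted at 68.1, 59.6 and 56.2 CPM in RS wt/wt and at 61.3, 57.1 and 42.4 CPM in ES wt/wt. In dcat/dcat its libraries read 50.2, 44.6 and 60.2 CPM in RS and 51.0, 35.0 and 50.7 CPM in ES. The stages overlapped in both genotypes, with log2 changes of -0.17 ± 0.24 (q = 0.594) and -0.18 ± 0.25 (q = 0.589). The main Catsper4 contig gave -0.17 ± 0.35 (q = 0.720) and -0.10 ± 0.36 (q = 0.847). The main Catsper3 contig (ENSMUST00000021961) gave -0.37 ± 0.32 (q = 0.377) in wt/wt. In dcat/dcat its RS libraries held 56.6, 31.5 and 34.6 CPM, all above the ES libraries at 30.1, 30.0 and 16.9 CPM, and the change was -0.70 ± 0.36 (q = 0.128). The second Catsper4 contig had 0 to 14 reads in each library, too few for the test, and was the only member left out.

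**Figure D3:**
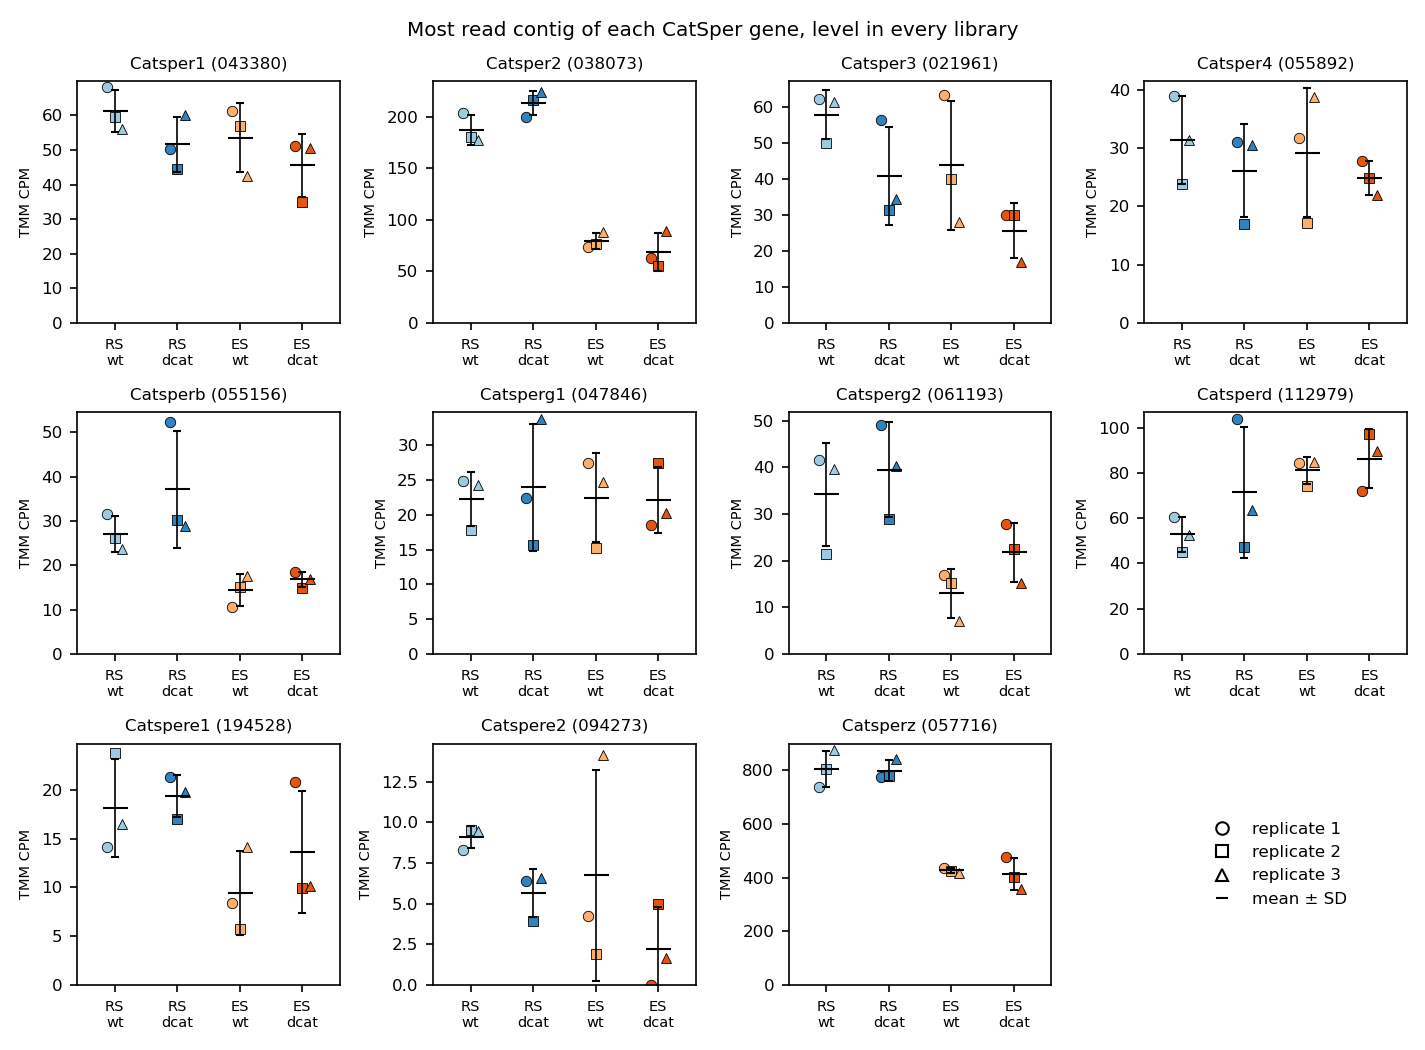
Level of the most read contig of each of the 11 CatSper genes in every library (y axis, TMM CPM, on an axis of its own from 0 in each panel; x axis, the 4 groups; point shape, replicate number; bars, mean ± SD over 3 libraries, cut at 0). Catsper2, Catsperz, Catsperb and Catsperg2 show ES points below all RS points of the same genotype in both genotypes, and Catsper3 does in dcat/dcat. Catsperd in wt/wt shows them above, and Catsper1, Catsper4, Catsperg1, Catspere1 and Catspere2 overlap.

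Among the auxiliary subunits, Catsperz fell in both genotypes. Its main contig (ENSMUST00000057716, 5 exons, 784 nt, chr19:6922423-6925380, minus strand) was counted at 738, 804 and 873 CPM in RS wt/wt and at 437, 426 and 417 CPM in ES wt/wt. In dcat/dcat it was at 774, 778 and 842 CPM in RS and at 478, 402 and 358 CPM in ES. The stages did not overlap in either genotype, with log2 changes of -0.92 ± 0.15 (edgeR q = 0.000207) and -0.95 ± 0.15 (edgeR q = 0.000149). CATSPERZ holds the calcium sensor EFCAB9 in the complex. The Efcab9 contig also fell, with log2 changes of -0.64 ± 0.23 (edgeR q = 0.0340) and -0.68 ± 0.23 (edgeR q = 0.0266).

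Catsperb and Catsperg2, which encode parts of the canopy over the pore, passed the test in 1 genotype each. The main Catsperb contig (ENSMUST00000055156) was counted at 31.6, 26.2 and 23.7 CPM in RS wt/wt and at 10.6, 15.2 and 17.7 CPM in ES wt/wt. In dcat/dcat it was at 52.4, 30.2 and 28.8 CPM in RS and at 18.5, 15.0 and 16.9 CPM in ES. ES libraries lay below RS libraries in both genotypes, and the log2 changes were -0.93 ± 0.36 (edgeR q = 0.0518) in wt/wt and -1.13 ± 0.34 (edgeR q = 0.0147) in dcat/dcat. The main Catsperg2 contig (ENSMUST00000061193) was counted at 41.5, 21.4 and 39.6 CPM in RS wt/wt and at 16.9, 15.2 and 7.06 CPM in ES wt/wt. In dcat/dcat it was at 49.2, 28.8 and 40.4 CPM in RS and at 27.8, 22.5 and 15.2 CPM in ES. Here too the stages did not overlap, with log2 changes of -1.32 ± 0.40 (edgeR q = 0.0163) and -0.88 ± 0.37 (edgeR q = 0.0670). The difference between genotypes in these stage changes, tested as an interaction, was not called for either gene. The Catsperb call in dcat/dcat did not hold without RS dcat/dcat replicate 1, ES dcat/dcat replicate 2 or ES dcat/dcat replicate 3 (highest q = 0.0762), and the Catsperg2 call in wt/wt did not hold without ES wt/wt replicate 2 or 3 (highest q = 0.0663). Without RS dcat/dcat replicate 1 the count in wt/wt rose from 3 to 5, by the main contigs of Catsperb and Catsperd.

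Catsperd was the one member whose ES libraries all lay above the RS libraries of a genotype. Its main contig (ENSMUST00000112979) was counted at 60.6, 45.3 and 52.6 CPM in RS wt/wt and at 84.5, 74.2 and 84.7 CPM in ES wt/wt. In dcat/dcat it was at 104, 47.2 and 63.4 CPM in RS and at 71.9, 97.4 and 89.5 CPM in ES, so that the stages overlapped through RS replicate 1. The log2 changes were 0.61 ± 0.28 (edgeR q = 0.0938) and 0.27 ± 0.27 (edgeR q = 0.449). With the libraries numbered 1 left out, a choice made after seeing the data, they were 0.69 (edgeR q = 0.0474) and 0.73 (edgeR q = 0.0225). With total counts alone the sign turned, to -0.11 and -0.40, which in both genotypes was less of a drop than the median of all contigs. CATSPERD is an auxiliary subunit without which the channel does not assemble in mouse sperm.

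Catsperg1, a near copy of Catsperg2, was not called. Its main contig (ENSMUST00000047846) was counted at 24.9, 17.9 and 24.2 CPM in RS wt/wt and at 27.5, 15.2 and 24.7 CPM in ES wt/wt, and the log2 changes were -0.03 ± 0.36 (q = 0.954) and -0.16 ± 0.36 (q = 0.745). The contigs of Catsperg1 and Catsperg2 aligned over 1843 nt at 94.8% identity, both on chromosome 7, so reads of one can be counted for the other and the contrast between the pair is uncertain. Catspere1 (ENSMUST00000194528), annotated as an unprocessed pseudogene, and Catspere2 (ENSMUST00000094273) both lie on chromosome 1, and their best alignment covered 332 nt at 96.1% identity. Catspere1 gave -1.02 ± 0.44 (q = 0.0806) and -0.53 ± 0.40 (q = 0.306). Catspere2 was read least of the tested genes, with 61 reads in 12 libraries, and gave -0.67 ± 0.64 (q = 0.414) and -1.38 ± 0.82 (q = 0.192).

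Of the 22 tested contigs, 6 had all ES libraries below all RS libraries in wt/wt and 5 in dcat/dcat, beside 27.3% and 25.2% of all contigs. The main contigs of Catsperb and Catsperg2, in both sets, reached the minimum for the test only in RS groups. So did Catsperz ENSMUST00000236981, in the wt/wt set. That favours a lower level in ES for these contigs. Conversely 1 contig in wt/wt and 0 in dcat/dcat had all ES libraries above RS, beside 25.9% and 25.7% of all contigs.

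The other tested contigs were lesser forms of the same genes, and none was called. Of Catsperb, the form annotated for nonsense-mediated decay (ENSMUST00000221241) gave log2 changes of -0.70 ± 0.71 (q = 0.443) in wt/wt and -1.27 ± 0.66 (q = 0.14) in dcat/dcat, with 0 reads in ES wt/wt replicate 3 and ES dcat/dcat replicate 1. Of Catsperd, the shorter form ENSMUST00000233947 gave 0.16 ± 0.42 (q = 0.783) and 0.01 ± 0.41 (q = 0.997). Of Catsper3, ENSMUST00000109898 gave -0.08 ± 0.53 (q = 0.920) and 0.20 ± 0.52 (q = 0.786). The Catsperg1 form that keeps introns (ENSMUST00000166419) gave 0.28 ± 0.57 (q = 0.717) and 0.68 ± 0.51 (q = 0.296), and ENSMUST00000169143 gave 0.23 ± 0.46 (q = 0.741) and 0.03 ± 0.50 (q = 0.973). The Catsperg2 form annotated for decay (ENSMUST00000208607) gave 0.26 ± 0.66 (q = 0.772) and 0.61 ± 0.62 (q = 0.449), while the main Catsperg2 contig was lower in ES.

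Among the lesser Catsperz forms, the pair annotated with a retained intron had negative log2 changes. ENSMUST00000236981 gave -1.04 ± 0.61 (q = 0.192) and -0.89 ± 0.72 (q = 0.344), and ENSMUST00000237563 gave -1.01 ± 0.84 (q = 0.351) and -0.86 ± 0.90 (q = 0.464). The non-coding form ENSMUST00000236318 gave 0.01 ± 0.52 (q = 0.993) and 0.18 ± 0.49 (q = 0.794). These lesser forms had between 72 and 151 reads each over 12 libraries, apart from Catsper3 ENSMUST00000109898 with 303, and their SE was up to 0.90.

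Because cells of both stages were sorted from the same mice, the stage comparisons were also fitted with the replicate number as a block. This takes libraries of 1 number and genotype to share their pool of mice. It also joins the wt/wt and dcat/dcat libraries of 1 number, which came from different mice. In dcat/dcat the count of members called lower rose from 3 to 6, while the share of all contigs called lower rose from 16.9% to 23.9%. The contigs gained were the main contigs of Catsper3 (-0.70 ± 0.29, edgeR q = 0.0480) and Catsperg2 (-0.90 ± 0.31, edgeR q = 0.0165) and the second Catsper2 contig (-0.61 ± 0.25, edgeR q = 0.0459). No member was called higher, beside 28.0% of all contigs. In wt/wt the block gave 5 members called lower beside 24.4% of all contigs, and 2 called higher beside 27.2%. Those gained were the main contigs of Catsperb (-0.95 ± 0.36, edgeR q = 0.0277) and Catsperd (0.61 ± 0.24, edgeR q = 0.0343), the second Catsper2 contig (-0.78 ± 0.29, edgeR q = 0.0281) and Catsperz ENSMUST00000237380 (0.57 ± 0.22, edgeR q = 0.0300). With a separate block in each stage 8 members were called in wt/wt and 5 in dcat/dcat, beside 54.3% and 55.4% of all contigs. That block joins same-numbered libraries of both genotypes within a stage and does not pair the stages. It takes the spread they share out of the error of the stage change, so these calls do not measure the full spread between pools.

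When the reads of all contigs of a gene were summed before the test, 4 of 11 genes were called in wt/wt and 3 of 11 in dcat/dcat. Catsper2, Catsperb and Catsperz were lower in both genotypes, beside 23.4% and 23.0% of 6867 genes called lower. In wt/wt the gene sums changed by -1.03 for Catsper2 (edgeR q = 0.000279), -0.73 for Catsperb (edgeR q = 0.0428) and -0.65 for Catsperz (edgeR q = 0.00251) on the log2 scale. Catsperd was called higher in wt/wt, at 0.65 ± 0.20 (edgeR q = 0.0105), beside 25.6% of genes called higher. In dcat/dcat no CatSper gene was called higher, beside 26.0% of genes, and Catsperd gave 0.38 ± 0.19 (edgeR q = 0.117). The Catsperg2 sum was not called, at -0.68 ± 0.29 (edgeR q = 0.0582) in wt/wt and -0.31 ± 0.27 (edgeR q = 0.356) in dcat/dcat.

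The level of RNA per length of transcript differed widely among the subunits. In RS wt/wt the main Catsperz contig stood at 1027 ± 86.2 CPM per kb (SD, n = 3), above Catsper2 at 83.2 ± 6.42. Then came Catsper3 at 43.6 ± 5.16, Catsper1 at 28.0 ± 2.81, Catsperd at 20.7 ± 3.01 and Catsper4 at 18.2 ± 4.41. On this scale the ranges of neighbours in that order did not overlap, except those of Catsperd and Catsper4. Catsperd is also a canopy gene. The others, Catsperg2, Catsperb, Catsperg1, Catspere1 (annotated as a pseudogene) and Catspere2, followed between 8.64 and 5.47 CPM per kb. In ES dcat/dcat Catsperd stood second at 33.7 ± 5.11, above Catsper2 at 30.7 ± 8.08, with overlapping ranges. A direct RNA read stands for 1 molecule whatever its length, so this scale lowers the long canopy transcripts, of up to 3957 nt, against the short Catsperz transcript. It also sets the order of other genes. In CPM not divided by length, RS wt/wt libraries held 56.2 to 68.1 for Catsper1, 50.0 to 62.3 for Catsper3 and 45.3 to 60.6 for Catsperd. Those ranges overlapped.

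The lesser contigs raised the question whether the form of a transcript changed with stage. A test of each contig against the sum of its gene's reads covered 18 contigs of 7 CatSper genes and called 0 in wt/wt and 0 in dcat/dcat, beside 1.21% and 1.07% of 6720 contigs. At an unadjusted p under 0.05 it counted 1 contig in each genotype, both times the Catsperz contig ENSMUST00000237380, which carries 43 extra nucleotides before the coding start (chr19:6925107-6925149). Of the Catsperz reads of wt/wt libraries, this contig held 2.63, 6.74 and 5.71% at the round stage against 8.02, 16.2 and 14.0% at the elongated stage. In dcat/dcat mice it held 3.74, 9.04 and 7.54% of them at the round stage against 5.70, 18.7 and 18.2% at the elongated stage. Each of 6 ES libraries had a larger share than the RS library of the same genotype and number. The log2 change of the share was 1.32 (edgeR q = 0.219) in wt/wt and 1.04 (edgeR q = 0.487) in dcat/dcat. With the replicate number as a block this contig was called in both genotypes, at 1.35 (edgeR q = 0.000178) and 1.02 (edgeR q = 0.00326), beside 4.05% and 4.93% of contigs. Without the block the CPM of the contig itself was not called in either genotype, at 0.54 ± 0.49 and 0.24 ± 0.48, while the main Catsperz contig fell. The 43 nucleotides lie 695 nt from the 3′ end of ENSMUST00000237380, which is 806 nt long, and direct RNA reads begin at that end. Only reads of nearly full length can tell this contig from the main Catsperz contig. Read length was not analysed, and its part in this share was not tested.

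In several lesser contigs replicate 1 had the lowest share of every group. The main Catsper3 contig holds 39 coding nucleotides, or 13 codons, that the second contig (ENSMUST00000109898) lacks. They are shown in capitals with 12 nucleotides of the contig on either side, because they are what sets the pair of Catsper3 forms apart in the coding part.
Catsper3, capitals chr13:55798744-55798782, plus strand: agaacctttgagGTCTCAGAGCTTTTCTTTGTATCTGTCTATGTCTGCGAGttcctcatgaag
The form without this stretch took 19.4, 45.5 and 38.8% of Catsper3 reads in RS wt/wt libraries and 21.1, 56.2 and 38.5% of them in ES wt/wt libraries. In dcat/dcat mice it took 29.3, 44.2 and 54.8% at the round stage and 31.6, 52.0 and 76.7% at the elongated stage. Replicate 1 was the lowest of the 3 libraries in every group. In TMM CPM, replicate 1 was the lowest in all 4 groups for 5 of 22 tested members, beside 10.8% of all contigs. It was the highest in all 4 groups for 3 of 22, beside 7.85% of all contigs. Replicates 2 and 3 were lowest in all groups for 4.07% and 1.29% of all contigs. The stretch lies 945 nt from the 3′ end, where direct RNA reads begin, and the second contig also has 31 further nucleotides at that end. Read length was not analysed here, and its part in these shares was not tested.

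**Figure D4:**
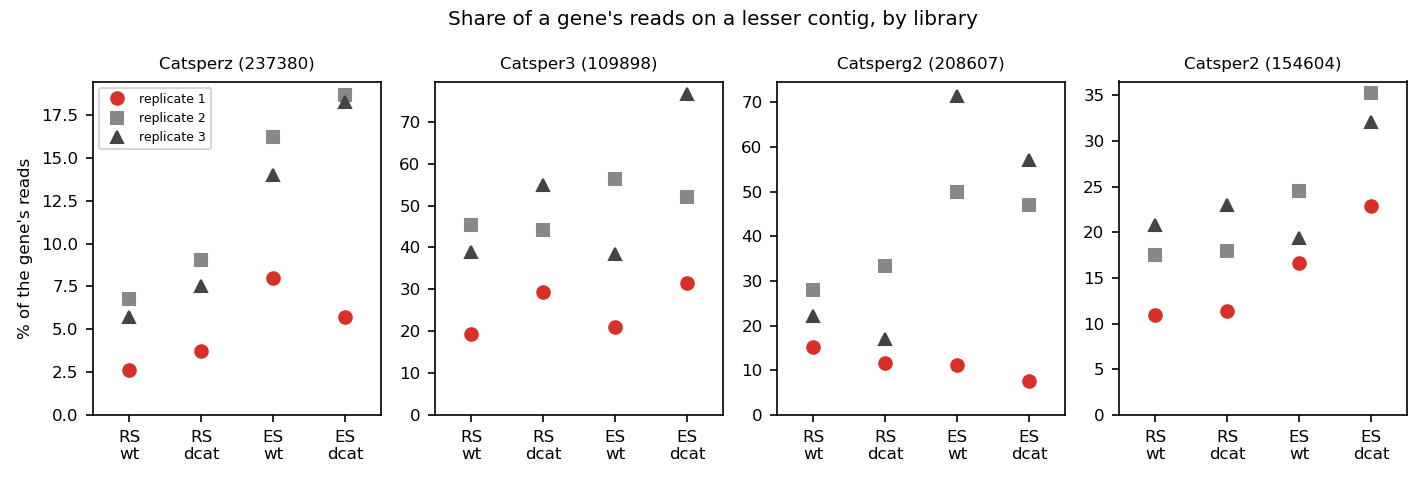
Percentage of a gene's reads (y axis) held by a lesser contig of Catsperz, Catsper3, Catsperg2 and Catsper2 in every library (x axis, the 4 groups; points, libraries by replicate number; last digits of the transcript identifier in the titles). Replicate 1 (red) is the lowest point of every group in all 4 panels, and the Catsperz share is higher in ES than in the RS library of the same number in 6 of 6 cases.

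No CatSper contig passed the test between genotypes. In RS 0 of 22 members were called, as were 0% of all 11831 contigs, and at an unadjusted p under 0.05 there were 0 members beside 0.828% of all contigs. The sorting of both genotypes side by side allows the replicate number as a block. With it 3 of 22 members had an unadjusted p under 0.05 in RS, beside 2.76% of all contigs, and 0 were called. They were the main Catsper3 contig (-0.54 ± 0.21) and Catsperz ENSMUST00000236981 (-0.84 ± 0.39) and ENSMUST00000237380 (0.42 ± 0.19). Of these, ENSMUST00000236981 reached the minimum for the test only in RS wt/wt, which favours a higher level in wt/wt. In ES 0 of 22 were called, again 0% of all contigs, with 1 member at an unadjusted p under 0.05 beside 3.01% of all contigs. In the interaction of stage and genotype 0 of 22 were called, 0% of all contigs, and 0 members beside 1.44% of all contigs had an unadjusted p under 0.05. With the same block as in RS, 1 member in ES had an unadjusted p under 0.05, beside 734 of 11831 contigs. In the interaction the block gave 0 members, beside 358 of 11831 contigs. DESeq2 called 0 members in each of these comparisons. The median log2 difference of the 22, dcat/dcat over wt/wt, was 0.12 in RS and 0.01 in ES. The SE of a single contig lay between 0.14 and 0.67 for RS, and between 0.15 and 1.07 for ES, so small differences were not detectable for the poorly read contigs.

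The member with the smallest p in ES was the main Catsper3 contig, at 63.4, 39.9 and 28.2 CPM in wt/wt and 30.1, 30.0 and 16.9 CPM in dcat/dcat. The groups overlapped, and the log2 difference was -0.84 ± 0.38 (edgeR q = 0.99997). In RS the same contig stood at 62.3, 50.0 and 61.5 CPM in wt/wt and at 56.6, 31.5 and 34.6 CPM in dcat/dcat, a difference of -0.51 ± 0.30 (edgeR q = 0.99995). Summed over both Catsper3 contigs the difference was -0.33 ± 0.22 in RS and -0.31 ± 0.28 in ES. The next in ES was Catspere2, with -1.35 ± 0.93 on 0 to 4 reads a library. In RS the smallest p was that of the Catsperz contig ENSMUST00000236981, which keeps an intron, at -0.86 ± 0.50. This contig reached the minimum for the test only in RS wt/wt, at 22, 15 and 15 reads, against 12, 4 and 7 in RS dcat/dcat. Its place in the test thus favours a higher level in wt/wt. In the interaction the smallest p values were those of the main contigs of Catsper2 (-0.36 ± 0.29) and Catsperd (-0.34 ± 0.39). In RS 1 of 22 members had groups that did not overlap, Catspere2, beside 5.31% of all contigs, and in ES 0 of 22, beside 7.66%. Catspere2 reached the minimum for the test only in RS wt/wt, at 10, 8 and 16 reads, against 6, 3 and 8 in RS dcat/dcat. That favours a higher level in wt/wt, so its separation in RS was partly set by the filter. For the genes best read the difference was small in both stages: the Catsperz gene sum gave 0.00 ± 0.16 in RS and -0.02 ± 0.17 in ES, and Catsper2 0.23 ± 0.18 and 0.05 ± 0.23. The largest gene sum difference in RS on the positive side was that of Catsperb, at 0.50 ± 0.21 (edgeR q = 0.99976), which was not called. Its libraries held 39.9, 32.2 and 34.9 CPM in wt/wt and 62.0, 47.2 and 42.8 CPM in dcat/dcat.

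**Figure D5:**
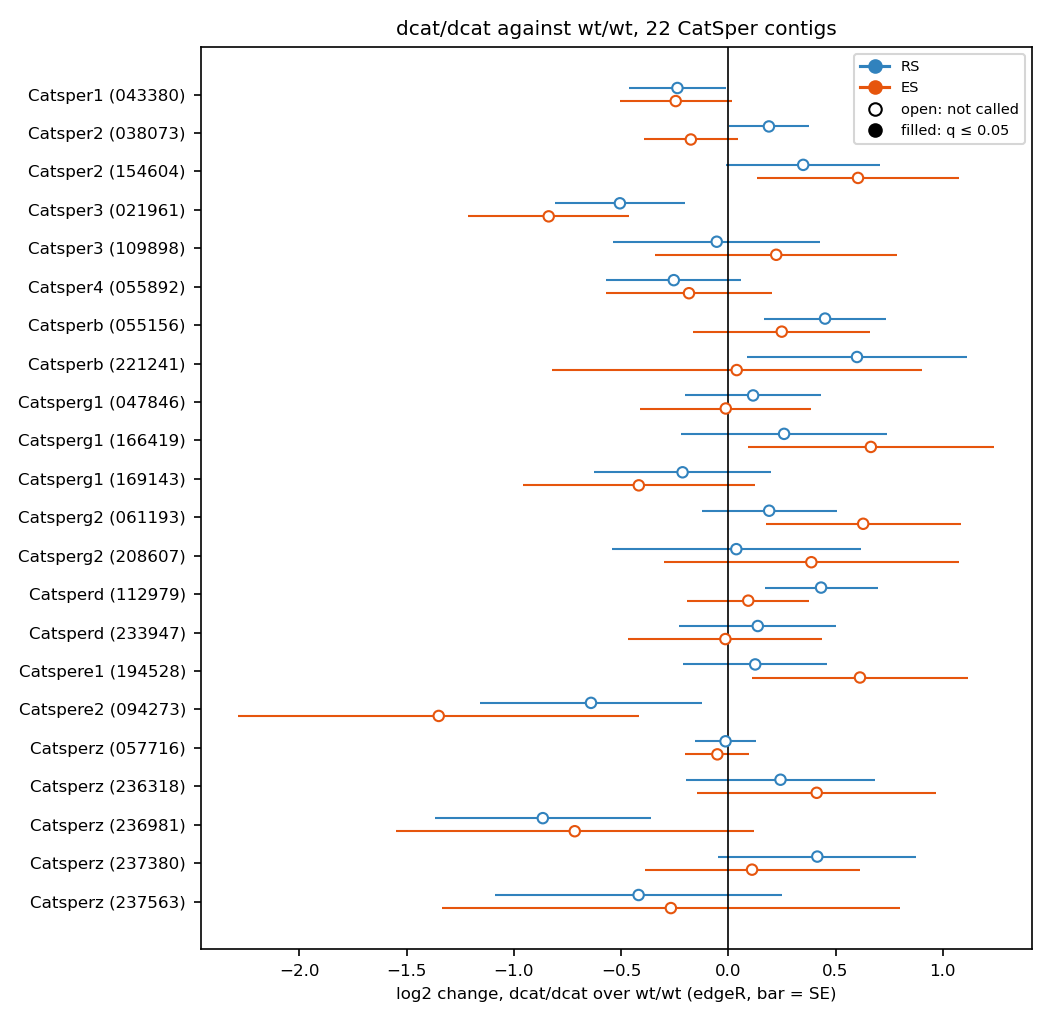
Log2 difference of dcat/dcat over wt/wt (x axis) for the 22 tested CatSper contigs (y axis, gene and last digits of the transcript identifier) in RS (blue) and ES (orange), with bars of 1 SE. All points are open, since no member had a q of at most 0.05, and they lie between -1.35 and 0.66.

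Several partners of the channel were also lower in ES. Tested were 10 contigs of 6 genes whose proteins have been found in the CatSper complex. In each genotype 4 of the 10 were called lower and 0 higher in ES. Of all contigs 16.5% in wt/wt and 16.9% in dcat/dcat were called lower, and 23.8% and 24.0% higher. The median log2 change of the 10 was -0.64 in wt/wt and -0.43 in dcat/dcat. In wt/wt, Slco6c1, an organic anion transporter bound to the channel, stood at 188 ± 12.3 CPM in RS against 99.2 ± 7.67 CPM in ES (-0.93 ± 0.18, edgeR q = 0.000968). Trim69 went from 168 ± 23.2 to 76.9 ± 23.2 CPM (-1.13 ± 0.28, edgeR q = 0.00474). C2cd6, needed to carry the channel into the flagellum, went from 173 ± 17.5 to 112 ± 22.9 CPM (-0.64 ± 0.21, edgeR q = 0.0238). In dcat/dcat the same 3 contigs changed by -1.09, -1.45 and -0.65. Tmem249 and Tmem262 contigs were not called.

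Other sperm ion channels and transporters were mixed, with 1 of 14 contigs called higher and 5 lower in wt/wt, and 1 higher and 3 lower in dcat/dcat. That stood beside 23.8% and 24.0% of all contigs called higher and 16.5% and 16.9% called lower. Atp1a4, the sodium pump of the sperm tail, rose in wt/wt from 129 ± 24.1 to 629 ± 53.0 CPM (2.28 ± 0.22, edgeR q = 2.94e-06). Vdac3, a channel of the outer mitochondrial membrane, fell from 468 ± 9.24 to 207 ± 45.0 CPM (-1.18 ± 0.18, edgeR q = 0.000125). The sodium-proton exchangers Slc9b1 (-1.28 ± 0.21, edgeR q = 0.000279) and Slc9c1 (-1.05 ± 0.27, edgeR q = 0.00586) fell too. Of the wider group of cAMP and calcium signalling genes, 16 of 38 contigs were called higher and 6 lower in wt/wt and 17 higher and 7 lower in dcat/dcat, beside 23.8% and 24.0% of all contigs called higher and 16.5% and 16.9% called lower. Akap4, the main protein of the fibrous sheath and also 1 of the elongated spermatid markers, rose from 191 ± 24.2 to 1714 ± 104 CPM (3.16 ± 0.16, edgeR q = 4.72e-08). Cabyr (2.69 ± 0.22, edgeR q = 1.67e-06) and Fscb (2.21 ± 0.21, edgeR q = 2.58e-06), both of the fibrous sheath, rose with it. Ppp3r2, the testis form of the calcineurin regulatory subunit, fell by 0.52 (log2; edgeR q = 0.00439) and Prkar1a, a regulatory subunit of protein kinase A, by 1.03 (edgeR q = 0.0106). No contig of the 3 groups was called in either comparison of genotypes.

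The contigs whose levels ran most like those of the main Catsperz contig over the 12 libraries were those of Spink2 (Pearson's r = 0.991 on log2 CPM), Glipr1l1 (r = 0.988) and Wfdc15a (r = 0.987). The points of these correlations share the split of the libraries into RS and ES.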

How the data were processed

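The authors sequenced poly(A) RNA directly on Nanopore R9 flow cells, aligned the reads with minimap2 (2.20-r1061 per the labels; SAMtools and DESeq2 are also named there) to mouse transcript sequences and deposited raw read counts per contig, with mm10 (GRCm38) named as the build. Reads had to pass the authors' poly(A) tail and barcode calls, and 4 barcodes in each library served to read 3′ end residues. Gene symbols came from a column of symbols in the authors' 3 deposited DESeq2 tables, joined by contig ignoring case. The fold changes and p-values of those tables were not used.

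The minimum for the test was 10 reads in each of 2 libraries of the same group, which 11831 of 12114 contigs reached. edgeR 4.0.16 (R 4.3.3) fitted 1 mean per group to 12 libraries with TMM scaling, and 5 comparisons were made with quasi-likelihood tests and Benjamini-Hochberg adjustment. The interaction subtracts the wt/wt stage change from that in dcat/dcat. Usage was tested with diffSpliceDGE. The tests were checked first on simulated data drawn without the difference in composition between stages, so that check does not bear on the choice of scaling. DESeq2 1.42.0, other scalings and filters, sums by gene, blocks and leaving out libraries were the alternatives. Transcript structures were those of GENCODE for GRCm38, 23 of 23 members were found there, and copies were aligned with blastn 2.17.0. The members and gene lists were chosen with earlier results of these data known.

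Every tested member was named in the stage comparisons, the 2 with the smallest p in each genotype comparison, up to 3 contigs per direction of each pathway group by q in wt/wt, and the 3 contigs most correlated with the member with most reads. Of these, 1 contig of the pathway groups that the rule names is not reported here. Per the study's methods both stages were isolated from the same mice and a mouse of each genotype was sorted in each session, so the replicate number was taken to pair libraries, although the sources do not say outright that a number marks the same pool. Deviations from the group means correlated between same-numbered libraries by 0.519, 0.252 and 0.291 between stages in dcat/dcat, 0.403, 0.363 and -0.0945 between stages in wt/wt, 0.696, 0.385 and 0.467 between genotypes in RS, and 0.454, 0.306 and 0.0336 between genotypes in ES. Library totals were 337287 to 1359427 reads. A count of 0 in a library allows up to 3 reads, or 1.77 to 10.6 TMM CPM, for counting error only. The libraries of a group came from different mice, and p-values of the fits without a block measure the spread between pools of 3 mice.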

Additional observations from a re-analysis of the deposited data

How the results depend on the processing

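Over the other settings run, results of single contigs kept direction and side of the threshold in 390 cases, turned direction in 27, passed the threshold in 31 and lost it in 1; with 1 library left out these were 270, 27, 2 and 5. The choice of scaling mattered most. With total counts only, 10 members were called between stages in each genotype, and the summed level, ES over RS, was 0.396 (wt/wt) and 0.392 (dcat/dcat) as a share of all counts and 0.464 and 0.457 outside the 10 most abundant contigs. With the replicate block 7 members were called in wt/wt and 6 in dcat/dcat (5 and 6 lower, beside 24.4% and 23.9% of all contigs), with the replicate block within each stage 8 and 5, beside 54.3% and 55.4% of all contigs in the latter, and the usage test with the replicate block called 1 contig in each (Catsperz ENSMUST00000237380). No member was called in a genotype comparison with the block, though 3 contigs of all were in RS and 1 in ES. Counts in wt/wt ran from 2 to 5 with 1 library left out. The following log2 changes turned sign, and the cause was not tested. In wt/wt with total counts only these were Catsperd ENSMUST00000112979 (-0.11) and ENSMUST00000233947 (-0.56), Catsperg1 ENSMUST00000166419 (-0.42) and ENSMUST00000169143 (-0.48), Catsperg2 ENSMUST00000208607 (-0.44), and Catsperz ENSMUST00000236318 (-0.71) and ENSMUST00000237380 (-0.17). In dcat/dcat they were Catsper3 ENSMUST00000109898 (-0.46), the same Catsperd contigs (-0.40 and -0.65), Catsperg1 ENSMUST00000169143 (-0.62), Catsperg2 ENSMUST00000208607 (-0.038) and the same Catsperz contigs (-0.47 and -0.42). Catsperg1 ENSMUST00000047846 in wt/wt, at -0.03, gave 0.0044 with RLE size factors, 0.0050 with DESeq2, 0.0028 with only the groups compared, 0.018 with the block and 0.027 with it within each stage. The block gave 0.0201 for Catsper3 ENSMUST00000109898 in wt/wt, and within each stage -0.17 for Catsperg2 ENSMUST00000208607. Replicates 2 and 3 alone, chosen after seeing the data, gave -0.14 in wt/wt and -0.14 in dcat/dcat for Catsperd ENSMUST00000233947, -0.0056 for Catsperz ENSMUST00000236318 in wt/wt and 0.048 for Catsperd ENSMUST00000112979 in the interaction. With at least 10 reads in every library, dcat/dcat gave -0.0046 for Catsperd ENSMUST00000112979 and -0.0246 for Catsperz ENSMUST00000237380. Leaving out 1 library gave, in wt/wt, -0.79 to 0.33 for Catsper3 ENSMUST00000109898, -0.36 to 0.21 for Catsper4 ENSMUST00000055892, -0.11 to 0.41 for Catsperd ENSMUST00000233947, -0.16 to 0.30 for Catsperg1 ENSMUST00000047846, -0.38 to 0.81 for ENSMUST00000166419, -0.070 to 0.90 for Catsperg2 ENSMUST00000208607 and -0.17 to 0.22 for Catsperz ENSMUST00000236318. In dcat/dcat it gave -0.37 to 0.56 for Catsper3 ENSMUST00000109898, -0.32 to 0.028 for Catsper4, -0.27 to 0.16 for Catsperd ENSMUST00000233947, -0.37 to 0.17 for Catsperg1 ENSMUST00000047846, -0.45 to 0.23 for ENSMUST00000169143, -0.23 to 0.60 for Catsperz ENSMUST00000236318 and -0.085 to 0.60 for ENSMUST00000237380, and in the interaction -0.56 to 0.016 for Catsperd ENSMUST00000112979. Most of these contigs had few reads, and 5 members alone reached 10 reads in every library. Catsperd ENSMUST00000112979 and Catsperz ENSMUST00000237380, with 636 and 539 reads over 12 libraries, were among those 5 and also turned sign.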
